A study of Pan troglodytes with 38 samples.

Results

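Transcripts of 8 genes that mark B cells and plasma cells were followed in heart tissue from 38 chimpanzees. The members are IGLV10-54, JCHAIN, MZB1, TNFRSF17, POU2AF1, CD79A, CD79B and MS4A1, and they were found by matching their symbols to the Ensembl gene identifiers of the chimpanzee gene count table. All 8 matched 1 row each (ENSPTRG00000051891, ENSPTRG00000016134, ENSPTRG00000017298, ENSPTRG00000007782, ENSPTRG00000004264, ENSPTRG00000011038, ENSPTRG00000009531 and ENSPTRG00000003715, in that order) among 31373 rows. Human counterparts in the tables of orthologous exons were not used here. The labels place all 38 animals in 1 group, post-mortem chimpanzee heart, with 1 library per animal. By the sample records RNA was extracted in an earlier year from 17 animals and in 2018 from 21. There were 22 females and 16 males, and recorded ages, known for 34, ran from 10 to 57 years. Of the 2018 animals 7 carried a note of hepatitis B virus (HBV) or hepatitis C virus (HCV), and all 7 came from 1 primate center. The other 14 included 1 animal of that center, 4X0357, recorded as exposed to HIV and testing negative, so the note and the center cannot be told apart. RNA integrity numbers (RIN, in which a higher value means less degraded RNA) ran from 2.5 to 8.4. The hearts came from different individuals, so the spread between libraries holds both biological and technical variation. The study reports first-degree relatives among its chimpanzees from a partial pedigree. Relatedness was not modelled here, and the tests below treat the animals as independent.

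A B cell recognises antigen through an antibody molecule held in its membrane, which signals through the paired chains CD79A and CD79B, and it carries the surface protein CD20, encoded by MS4A1. POU2AF1 encodes a transcriptional coactivator that works at immunoglobulin promoters. When a B cell matures into an antibody-secreting plasma cell it loses CD20 and turns to making secreted antibody: JCHAIN encodes the chain that joins antibody units into polymers, MZB1 a protein of the endoplasmic reticulum that helps antibody assembly, and TNFRSF17 the survival receptor BCMA. IGLV10-54 is 1 variable segment of the lambda light chain locus. Each B cell joins a single variable segment into its functional light chain, so the use of such segments differs between clones. The heart holds few such cells in normal tissue.

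Levels were expressed as CPM, the count of a gene per 1000000 counts of that animal's total on orthologous exons. These totals ran from 14408012 to 81603350, so that a count of 3 was worth 0.0368 to 0.208 CPM. Levels are not corrected for length, so they are compared between animals for each gene. Ratios and shares across genes given below carry the differences in length, and they too are compared between animals. Rankings of genes by mean carry these differences as well. In bulk tissue fewer cells of a type and less RNA per cell cannot be told apart.

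The 8 members were low in most hearts and very high in a few. 4 animals, named here by their labels as 4x523, 4X0333, 4x0043 and 529, stood above the rest for most members, and they were singled out after their values were seen. Of these, 4x523 and 4x0043 belonged to the earlier extraction, and 4X0333 and 529 to the 2018 extraction. By the sample records 4x523, 4X0333 and 4x0043 came from SNPRC, the primate center of the virus-noted animals, and 529 from Yerkes. SNPRC gave 13 of the 38 animals. Animal 4X0333 carried a note of both HBV and HCV. The part of the center in these levels was not tested. Each of the 8 genes but CD79B had 60.3% to 99.2% of its CPM, summed over 38 animals, in these 4 animals, whereas CD79B had 28.2% there. Across the 13121 genes that reached 6 CPM in at least 1 animal the median share was 10.2%, and 1.11% of those genes had over 50% of their sum in the 4. Of all 13121, 8.43% had their highest level in 1 of the 4 animals, as had every member, including CD79B and TNFRSF17, which follows in part from how the 4 were chosen.

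**Figure D1:**
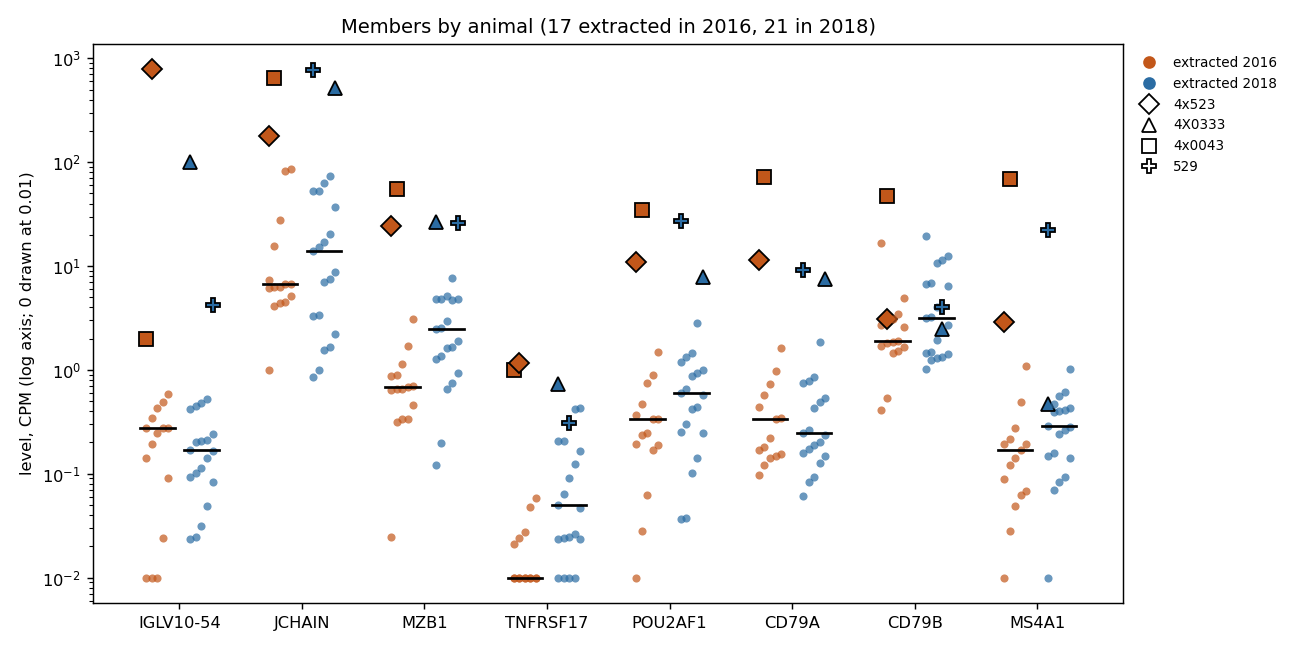
Level of each of the 8 members in CPM on a log axis, with 0 drawn at 0.01. Each point is 1 animal, colours give the extraction year, bars give the median of each year, and the 4 animals drawn with their own symbols sit at the top for every gene except CD79B and, for 4X0333, MS4A1 and, for 529, TNFRSF17.

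JCHAIN, the joining chain of secreted antibody, was detected in all 38 hearts. Its level was 0.846 CPM in animal 4X0357 at the lowest, 7.38 CPM at the median and 774 CPM in animal 529 at the highest. The 3 animals after 529 were 4x0043 with 652 CPM, 4X0333 with 517 CPM and 4x523 with 178 CPM. The next animal, 317, had 86.7 CPM, 2.05 times less than 4x523. Even among the other 34 animals the highest level was 102 times the lowest.

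MZB1, the endoplasmic reticulum cofactor of antibody secretion, had the same 4 animals on top. It ran from 0.0243 to 54.8 CPM with a median of 1.31 CPM. The highest was 4x0043 with 54.8 CPM, followed by 4X0333 with 26.4, 529 with 25.995 and 4x523 with 24.5 CPM, and the next animal, 558, had 7.65 CPM. In the RefSeq neighbourhood table of a later chimpanzee assembly MZB1 overlaps PROB1, and a library kit that does not mark strand cannot tell reads of overlapping genes apart. PROB1 was at 3.08 to 79.4 CPM, and its rank correlation with MZB1 over the 38 animals was rho = -0.22.

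TNFRSF17, the plasma cell survival receptor, was near the detection limit. It was at 0 counts in 14 animals and under 3 counts in 25, and never reached 6 CPM. Its highest levels were 1.16 CPM in 4x523 (63 counts), 0.996 CPM in 4x0043 (31 counts) and 0.733 CPM in 4X0333 (33 counts). Animal 558 with 0.425 CPM and 537 with 0.422 CPM lay above 529 with 0.306 CPM. In the same RefSeq table this gene lies within the span of NPIPB2, a member of a repeated gene family, and its low counts are uncertain for that reason.

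POU2AF1, the coactivator at immunoglobulin promoters, was at 0 in 1 animal, at 0.430 CPM at the median and at 34.6 CPM in 4x0043. The next levels were 27.4 CPM in 529, 11.03 in 4x523 and 7.89 in 4X0333, and no other animal passed 2.85 CPM. CD79A, a signalling chain of the B cell receptor, followed the same division with 72.7 CPM in 4x0043, 11.3 in 4x523, 9.07 in 529 and 7.46 in 4X0333, against at most 1.87 CPM in the other 34 animals and a median of 0.255 CPM overall. These 2 genes are active in both B cells and plasma cells, and all 4 animals were above the rest for both.

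MS4A1, which encodes CD20 and is switched off in plasma cells, was high in fewer animals. Animal 4x0043 had 69.6 CPM and animal 529 had 22.2 CPM. Then came 4x523 with 2.87 CPM, 4x0519 with 1.10 and 4X0095 with 1.02 CPM, and the median was 0.229 CPM. Animal 4X0333, at rank 3 for JCHAIN, had 0.466 CPM of MS4A1 and rank 10, within the range of the other animals.

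The proportion of CD20 message to joining chain message therefore differed between the 4 animals. For every 1000 JCHAIN counts there were 107 MS4A1 counts in 4x0043, 28.7 in 529, 16.1 in 4x523 and 0.902 in 4X0333. The median over the other 34 animals was 24.2, with a range of 0 to 286. The corresponding figure for MZB1, a plasma cell gene, was 84.1 in 4x0043, 33.6 in 529, 138 in 4x523 and 51.1 in 4X0333. Thus 4x0043 and 4X0333, with JCHAIN levels of 652 and 517 CPM, differed 118-fold in their MS4A1 to JCHAIN ratio and 1.65-fold in their MZB1 to JCHAIN ratio. Each of these ratios comes from a single library and has no replicate.

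**Figure D2:**
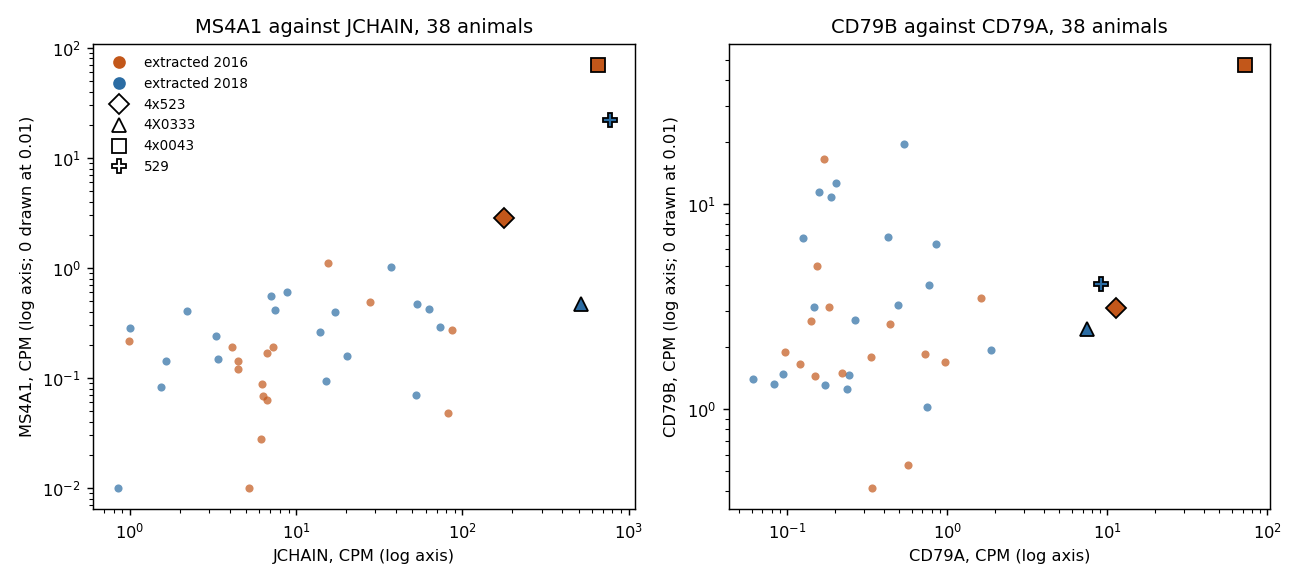
Left, MS4A1 against JCHAIN; right, CD79B against CD79A, both in CPM on log axes, with 1 point per animal coloured by extraction year. Animal 4X0333 has a JCHAIN level of 517 CPM with MS4A1 at 0.466 CPM, and the animals with CD79B above 10 CPM other than 4x0043 have CD79A below 1 CPM.

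CD79B, the second signalling chain, did not follow its partner. It was detected in all 38 animals, ran from 0.413 to 47.2 CPM with a median of 2.65 CPM, and was highest in 4x0043. The next animals were 4X0212 with 19.6 CPM, MD_And with 16.6, 4X0354 with 12.6, 537 with 11.3 and 495 with 10.8 CPM. Animals 529, 4x523 and 4X0333 had 4.06, 3.09 and 2.47 CPM and took ranks 11, 17 and 21. CD79B was 0.273 to 0.650 times CD79A in the 4 animals and 0.944 to 97.3 times CD79A, with a median of 9.99, in the other 34. SCN4A, a sodium channel gene that neighbours CD79B, reached 7.23 CPM in 537, the highest of any animal, 5.48 CPM in 495 and 4.94 CPM in 4X0354, but 1.31 CPM in 4X0212 and 1.22 CPM in MD_And. Over 38 animals CD79B and SCN4A had rho = 0.53 as a description, and the part of SCN4A in the CD79B counts was not tested.

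IGLV10-54 was the most uneven member. It was at 784 CPM in 4x523, 99.96 CPM in 4X0333, 4.21 CPM in 529 and 1.99 CPM in 4x0043, while the other 34 animals lay between 0 and 0.580 CPM. Animal 4x523 alone carried 87.4% of the CPM summed over all animals, and with it left out the mean fell from 23.6 CPM (SD 128, n = 38) to 3.06 CPM (SD 16.4, n = 37), while the median hardly moved, from 0.204 to 0.202 CPM. For JCHAIN the mean was 73.0 CPM (SD 177) with and 70.2 CPM (SD 178) without that animal.

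The table named 18 immunoglobulin rows, 15 of variable segments and 3 of constant regions. IGHMBP2 and IGLON5 share the letters but are not immunoglobulins and were left out. Apart from IGLV10-54, the 3 rows with the highest mean were IGKC, the kappa constant region, with 3.89 to 6595 CPM, IGLC3, a lambda constant region, with 0.261 to 446 CPM, and IGHV5-51, a heavy chain variable segment, with 0.0408 to 159 CPM. All 3 were highest in 4x0043. Variable segments resemble each other, so the authors' counting could have split or dropped reads between them. Each share below is uncertain to that extent. Rows without a symbol were not counted, and how many of them are variable segments was not examined. Shares and leading segments below are therefore those among the 15 named rows, not among all variable segments.

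In 4x523 IGLV10-54 made up 75.8% of the 56198 counts on the 15 named variable segments (95% Wilson interval 75.5% to 76.2%). In 4X0333 it made up 50.5% of 8903 counts (49.5% to 51.6%). The share was 2.91% of 3779 counts in 529 and 0.304% of 20405 counts in 4x0043, and the other 34 animals ranged from 0% to 16.9% with a median of 2.52% on 7 to 2209 counts. These intervals cover counting error only, since reads without molecular identifiers are not independent molecules. The leading segment was spread more evenly in the other 2 of the 4 animals, with IGHV5-51 at 24.2% in 4x0043 and IGKV1-27 at 23.7% in 529.

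A single named segment also led in an animal with a modest joining chain level. In animal 549 IGLV2-8 accounted for 85.7% of 2209 counts on the named variable segments (84.2% to 87.1%). JCHAIN was at 27.6 CPM there and IGLV10-54 at 0.588% of those counts. Of the 18 animals with at least 200 variable segment counts, the leading segment was IGHV5-51 in 4, IGKV1D-43 in 3, IGHV1-24 in 3, IGLV3-25, IGLV10-54 and IGKV1-27 in 2 each, and IGKV1-6 and IGLV2-8 in 1 each. The leading share ranged from 17.5% to 85.7% with a median of 29.9%.

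**Figure D3:**
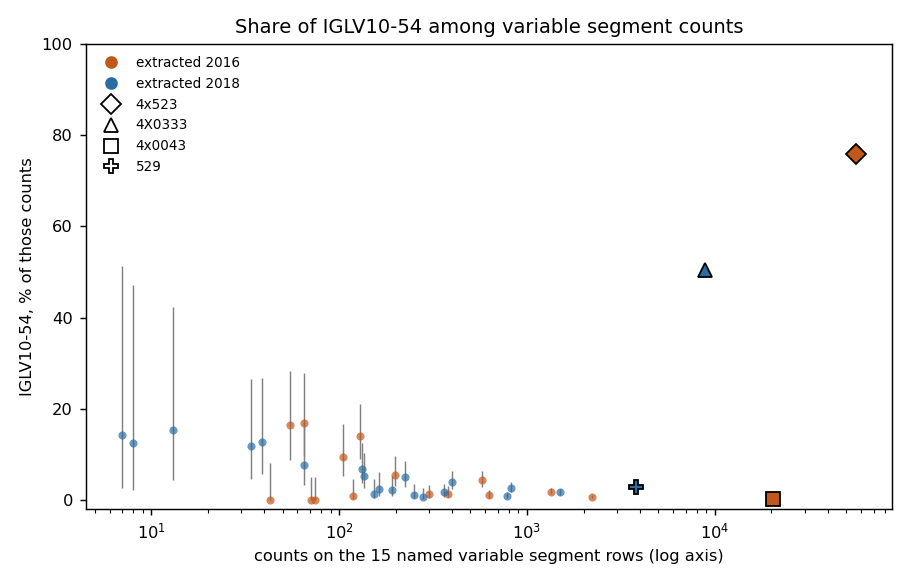
Percent of counts on the 15 named variable segments that fell on IGLV10-54, against the number of those counts on a log axis. Each point is 1 animal coloured by extraction year, and bars are 95% Wilson intervals. Animals 4x523 and 4X0333 lie at 75.8% and 50.5%, and all others lie at or below 16.9%.

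As a percent of IGKC, the lambda constant region IGLC3 did not stand out in 4x523 and 4X0333. Its own level in 4x523 was 166 CPM, 54.1 times its median. IGLC3 was 9.01% of the IGKC level in 4x523, 9.39% in 4X0333, 6.76% in 4x0043 and 17.9% in 529, and 2.56% to 24.9% with a median of 6.64% in the other 34 animals. IGLV10-54 itself stood at 42.6% of IGKC in 4x523 and at 10.7% in 4X0333. Only 2 lambda constant rows, IGLC3 and IGLC7, carried a name in the table. IGLC7 was at 29.4 CPM in 4x0043, 26.5 in 529 and 2.45 in 4x523, with 4X0333 at rank 7. Constant regions without a name were not analysed here, so how IGLV10-54 went with lambda constant message as a whole was not tested.

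The other genes of the B cell programme were taken from 3 lists. The list of B cell receptor and identity genes held 27 symbols, of which 25 were in the table and 15 reached 6 CPM in at least 1 animal. Of those 15 genes, 11 had their highest level in 4x0043 and 0 in 4x523, 4X0333 or 529, while 4x0043 was the highest animal for 1.49% of all 13121 genes. The 3 highest of the list by mean, EBF1, LYN and SYK, are active in many cell types and were not among the 11. Named after its values were seen, CXCR5, the receptor that guides B cells into follicles, was at 9.96 CPM in 4x0043 and at most 0.727 CPM in any other animal.

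The list of plasma cell identity and antibody secretion genes held 20 symbols, all in the table, and 19 reached 6 CPM. Of these 19, 8 were highest in 4x0043, 4 in 529 and 7 in animals outside the 4. One gene, FCRL5, stands in both lists. The 3 highest by mean, HERPUD1, SPCS2 and TXNDC5, serve protein folding and secretion in all cells. HERPUD1 had a median of 190 CPM and a highest level of 392 CPM in animal 495, and SPCS2 ran from 72.2 to 195 CPM. TXNDC5 ran from 40.2 to 237 CPM and was highest in 4x0043, with 4X0333, 529 and 4x523 at ranks 3, 4 and 5. Of the genes named after their values were seen, SDC1, which encodes the plasma cell surface protein CD138, was at 27.2 CPM in 4x0043, 14.95 in 4X0333, 13.3 in 4x523 and 4.90 CPM in 529, with no other animal above 3.47 CPM. IRF4, a transcription factor of plasma cells, was at 19.6 CPM in 529 and 8.66 to 9.16 CPM in the other 3, with no other animal above 3.34 CPM. Other genes of the list did not divide the animals in this way. PRDM1 was highest in 529 with 30.4 CPM, but 4X0333 had 4.18 CPM at rank 17, near the median of 3.84 CPM. CD38 was highest in 537, with 4x523, 4X0333, 4x0043 and 529 at ranks 9, 13, 11 and 10. XBP1 was highest in Little_R, with the same 4 at ranks 2, 6, 5 and 7.

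The list of survival and homing ligands held 12 symbols, of which 9 reached 6 CPM. By mean its highest genes were the chemokines CXCL12 and CCL21 and the cytokine IL6. CCL21 was highest in 529 with 73.2 CPM, and CXCL12 and IL6 were highest in animals outside the 4. Named after their values were seen, CXCL13, a chemokine that draws B cells into follicles, and CCL19, a chemokine of the T cell zone of lymphoid tissue, were both highest in 4x0043. CXCL13 was at 9.19 CPM there, 3.75 CPM in 4x523, 0.153 CPM in 529, 0 in 4X0333, and at most 0.0968 CPM in the other 34. CCL19 was at 50.5 CPM in 4x0043 and at most 7.93 CPM elsewhere.

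Markers of T and natural killer cells moved with the members in 3 of the 4 animals. The summed level of the 18 markers was 624 CPM in 529, 414 CPM in 4x0043 and 246 CPM in 4x523, the 3 highest of all animals, but 30.1 CPM in 4X0333, at rank 26, with a median of 58.0 CPM over all 38. Of the 16 that reached 6 CPM, 8 were highest in 529 and 6 in 4x0043. Macrophage markers, 12 in all, summed to 782 CPM in 4x523, rank 3 of 38, but to 152 CPM in 4x0043, 111 CPM in 4X0333 and 104 CPM in 529, at or below the median of 166 CPM. Erythrocyte markers, of which 8 of 9 were in the table and 3 reached 6 CPM, summed to 8949 CPM in 529 and 2336 CPM in 4x0043, the 2 highest of all animals. They summed to 840 CPM in 4x523 and 309 CPM in 4X0333, at ranks 8 and 17, with a median of 231 CPM, and all 3 were highest in 529. Neutrophil and monocyte markers were at rank 3 in 529 and at ranks 11, 17 and 23 in 4x523, 4X0333 and 4x0043. The part of these other cells and of blood in the members' levels was not tested. In depth 4x523, 4X0333, 4x0043 and 529 took ranks 3, 11, 31 and 32 of 38. Mitochondrial genes took 17.2% of counts in 4x523, the lowest of all animals, 21.5% in 4X0333, 31.5% in 4x0043 and 52.7% in 529, the third highest. Animal 529 was also the highest of the 38 for 5.67% of all expressed genes.

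**Figure D4:**
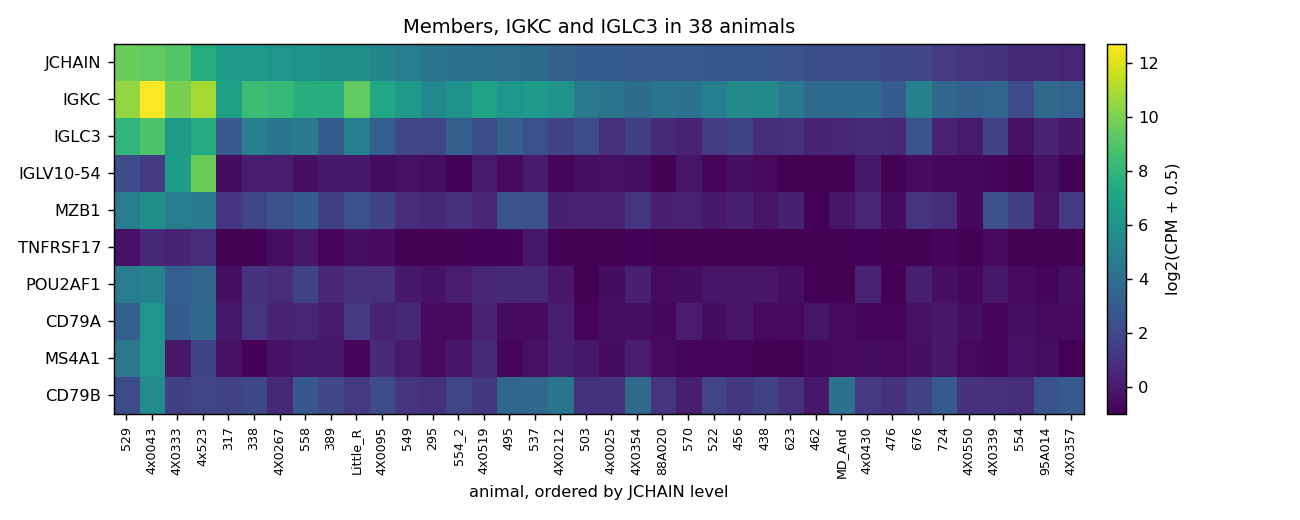
Levels of the 8 members and of IGKC and IGLC3 as log2(CPM + 0.5), with 1 column per animal ordered by JCHAIN. Colours compare animals along a row, not genes. The 4 columns at the left, with JCHAIN of 178 CPM or more, are bright in most rows, and the CD79B row has its bright cells scattered over other animals.

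To ask whether the members varied together outside those 4 animals, 7 members were correlated over the other 34, in 21 pairs. The scale was log2(CPM + 0.5), with permutation tests. These 7 reached 6 CPM in at least 1 of all 38 animals, some of them only in the 4 left out. A Benjamini-Hochberg adjusted p under 0.05 for Spearman's rho was found in 9 pairs, all of them among the 15 without CD79B. Among the 9 were the pairs of IGLV10-54 with JCHAIN, MZB1, POU2AF1 and CD79A, though IGLV10-54 was at most 0.580 CPM in these animals. MZB1 and POU2AF1 were the closest pair, with rho = 0.75 (adjusted permutation p = 0.00021), Pearson's r = 0.79 (adjusted permutation p = 0.000105), r = 0.75 without the 2 animals farthest in MZB1, and rho = 0.67 in the 15 animals of the earlier extraction and 0.78 in the 19 of 2018. JCHAIN and POU2AF1 had rho = 0.62 (adjusted permutation p = 0.0015) and r = 0.69 (adjusted permutation p = 0.000105), with r = 0.74 without the 2 farthest animals and rho = 0.46 and 0.74 in the 2 extraction years. JCHAIN and CD79A had rho = 0.59 (adjusted permutation p = 0.0020) and r = 0.68 (adjusted permutation p = 0.00021), with r = 0.66 without the 2 farthest animals and rho = 0.68 and 0.56 in the 2 years.

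CD79A and CD79B, whose products form 1 complex, had rho = 0.08 (adjusted permutation p = 0.68) and r = -0.04 (adjusted permutation p = 0.88) in the same animals, with r = -0.02 without the 2 farthest and rho = -0.11 and 0.15 within the years. JCHAIN and MS4A1 had rho = 0.36 (adjusted permutation p = 0.074) and r = 0.31 (adjusted permutation p = 0.13), with r = 0.41 without the 2 farthest and rho = 0.21 and 0.38 within the years. MS4A1 had fewer than 3 counts in 8 animals and IGLV10-54 in 9, so their ranks there were set largely by counting error. The pairs share the library total in their scaling.

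Over all 38 animals the named genes most like JCHAIN, members left out, were other antibody genes. By Spearman's rho these were IGKC (0.93), IGHV5-51 (0.90), IGLC3 (0.89), IGKV1-27 (0.85) and IGKV1D-13 (0.84), among 13121 genes compared, with 18 rows that carry no symbol above the fifth. Among the members POU2AF1 followed with 0.73, CD79A with 0.70, IGLV10-54 with 0.67 and MZB1 with 0.62. CD79B had 0.21 and stood at rank 4360.

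The named genes most like MS4A1 by rank were genes of lymphocytes at large. They were RASGRP1 (rho = 0.80), a signalling gene of lymphocytes, P2RY10 (0.75), CD2 (0.75), an adhesion molecule of T and natural killer cells, SAMD3 (0.74) and KLRK1 (0.74), a receptor of natural killer and T cells. With Pearson's r in place of ranks, which lets the 2 animals with the most MS4A1 weigh more, the 5 included the B cell genes BLK, BANK1 and FCRL2 together with P2RY10. Only P2RY10 was shared between those lists.

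The spread between animals was summarised as overdispersion, the variance beyond counting error in a negative binomial fit, relative to the trend of genes of the same mean. The residual is on the natural log scale, with an error from leaving out each animal in turn. IGLV10-54 had an overdispersion of 6.76 and a residual of 4.02 ± 1.66 (SE, n = 38), rank 3 of 13121 genes, and JCHAIN had 2.59 and 3.32 ± 0.19, at rank 19. The residual of MS4A1 was 2.07 ± 1.31, of CD79A 1.92 ± 1.28, of MZB1 1.90 ± 0.46, of POU2AF1 1.71 ± 0.60 and of CD79B 1.27 ± 0.51. The median gene had an overdispersion of 0.126. Genes that passed the 6 CPM filter through 1 or 2 animals, as MS4A1 and IGLV10-54 did, had to be uneven, so their place is a description and no test.

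These residuals rested on single animals to different degrees. Without 4x523 IGLV10-54 fell to 2.33, and its rank went from 3 to 142, while JCHAIN stayed at 3.33. Leaving out 4x0043 alone gave 0.759 for MS4A1 and 0.627 for CD79A. With all 4 animals left out, only JCHAIN, MZB1 and CD79B still reached 6 CPM in any heart, with residuals of 2.34, 0.42 and 0.90, and JCHAIN was then at rank 121 of 12936 genes. Only JCHAIN, MZB1 and CD79B also entered the study's normalised matrix of 13545 genes in 37 of the animals, which required a minimum count in most animals. In that matrix, on a standardised scale, 4x0043 scored 2.496 for JCHAIN, 2.92 for MZB1 and 2.86 for CD79B, the highest of all animals each time. The order for JCHAIN thus differed from that in CPM. Animal 529, highest in CPM, scored 1.91 at rank 3, and 4x523 was at rank 5, after 317 at rank 4.

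The 5 recorded conditions were then compared with edgeR's quasi-likelihood test over all genes, with Benjamini-Hochberg adjustment. TNFRSF17 did not pass the filter on low counts in any of them, and with that filter dropped its adjusted p ranged from 0.65 to 0.97. In each comparison the fitted change is on the log2 scale with its standard error.

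For RNA extracted in 2018 against the earlier year, with sex as covariate, 0 of 7 tested members passed the adjusted threshold of 0.05, while 16.1% of 15790 genes did. At an unadjusted p under 0.05 stood 1 member, CD79A, and DESeq2, which called 19.7% of the genes, and limma-voom, which called 12.1%, also called 0 members. JCHAIN ran from 0.986 to 652 CPM with a median of 6.67 CPM in the 17 animals of the earlier extraction, and from 0.846 to 774 CPM with a median of 13.8 CPM in the 21 of 2018. The groups overlapped over nearly their whole range, and the fitted change was 0.23 ± 0.88 (adjusted p = 0.89). CD79A ran from 0.0964 to 72.7 CPM (median 0.333) in the earlier extraction and from 0.0613 to 9.07 CPM (median 0.245) in 2018, a change of -2.05 ± 0.89 (adjusted p = 0.11). MS4A1 changed by -2.38 ± 1.40 (adjusted p = 0.25) with medians of 0.169 CPM in the earlier extraction and 0.291 CPM in 2018, so the fitted direction and the medians were opposed. Without the 4 animals the change of MS4A1 was 0.73 ± 0.46 (adjusted p = 0.31).

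MZB1 and IGLV10-54 depended on which animals were kept. MZB1 ran from 0.0243 to 54.8 CPM (median 0.683) in the earlier extraction and from 0.122 to 26.4 CPM (median 2.47) in 2018, with a fitted change of -0.22 ± 0.72 (adjusted p = 0.86). With the 4 animals left out, a choice made after seeing the data, it was 1.598 ± 0.43 higher in 2018 (adjusted p = 0.011), the 1 member called beside 13% of 15706 genes,, at medians of 0.652 CPM in 15 animals and 1.88 CPM in 19, in ranges that still overlapped. DESeq2 on all animals gave 1.39 ± 0.55 (adjusted p = 0.056), and over 10 fits the adjusted p ranged from 0.011 to 0.92. IGLV10-54 had a change of -0.07 ± 3.75 (adjusted p = 0.99) with all animals and 3.28 ± 1.06 (adjusted p = 0.030) without 4x523, where 15.1% of 15836 genes were called and 4X0333 of the 2018 extraction was the only animal left above 5 CPM. Its adjusted p ranged from 0.030 to 0.99 over 9 fits.

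Few genes of the B and plasma cell lists passed with extraction, beside the 16.1% called over all genes. Of the B cell receptor and identity genes 0 of 14 tested passed, with a median change of -0.45, and of the plasma cell genes 0 of 19, with a median of -0.11, beside a median of -0.01 over all genes. Of 10 tested survival and homing ligands 1 rose in 2018, LTA, a cytokine of lymphocytes (2.54 ± 0.74, adjusted p = 0.015), whose highest level was 22.3 CPM in animal Little_R, while the median change of the 10 was -0.57, with 2 of 10 above 0. Of 14 tested immunoglobulin rows 1 fell, IGLV2-8 (-2.69 ± 0.91, adjusted p = 0.039), the segment led by animal 549 of the earlier extraction. The median fitted change of the 14 was -1.31, with 1 of 14 above 0. The median levels did not all go that way. From the earlier extraction to 2018 they rose from 29.2 to 62.9 CPM for IGKC and from 1.39 to 4.64 CPM for IGLC3. For IGHV5-51 the median rose from 0.626 to 0.971 CPM, whereas for IGKV1-27 it fell from 0.57 to 0.469 CPM. All of these 4 rows were highest in 4x0043, an animal of the earlier extraction. Macrophage markers fell in 10 of 12 cases, with a summed median of 269 CPM in the earlier extraction and 113 CPM in 2018, and 6 of 9 cell cycle markers, 3 of 9 neutrophil and monocyte markers and 1 of 17 T and natural killer cell markers fell as well. Their part in the members' values was not tested.

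**Figure D5:**
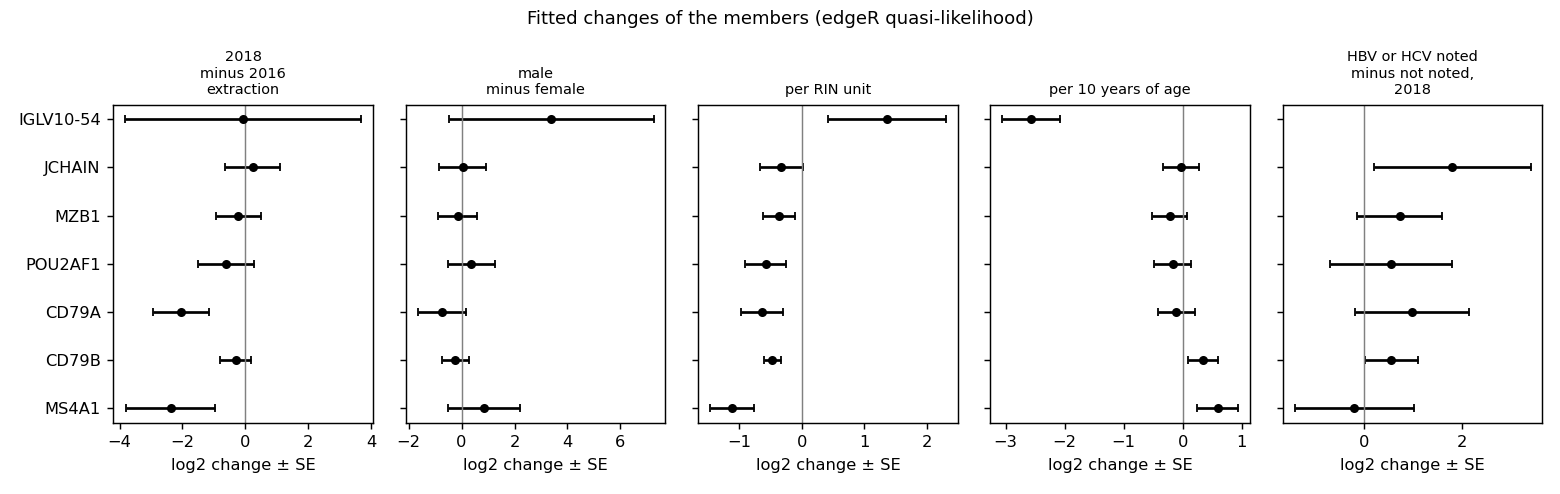
Fitted log2 change of the 7 tested members (6 in the virus comparison) with standard errors, from edgeR's quasi-likelihood fits for 5 recorded conditions. In none of the 5 panels did a member pass the adjusted threshold, and the IGLV10-54 bar of -2.57 ± 0.49 per 10 years of age has the adjusted p of 0.14.

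For 16 males set against 22 females, adjusted for the year of extraction, 0 of 7 members passed, beside 0.215% of 15790 genes. DESeq2, with 0.64% of genes called, and limma-voom, with 0.215%, called 0 members as well. No member had an unadjusted p under 0.05 in edgeR, and 2 had one in DESeq2. The adjusted p ranged from 0.87 to 0.996. JCHAIN changed by 0.05 ± 0.89 and POU2AF1 by 0.38 ± 0.90. The largest fitted change, 3.39, was that of IGLV10-54, whose highest animal, 4x523, was male. Over 8 fits the change of IGLV10-54 ran from -2.52 to 4.32, with an adjusted p of 0.49 to 0.91.

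Along RIN, with extraction year and sex as covariates, 0 of 7 members and 0 of 16462 genes passed in edgeR (0% called), though 2276 genes and 2 members had an unadjusted p under 0.05. MS4A1 changed by -1.12 ± 0.35 per RIN unit (adjusted p = 0.16) and CD79B by -0.47 ± 0.14 (adjusted p = 0.15). DESeq2 called 1.02% of the same genes, among them 3 members: MS4A1 lower by -1.12 ± 0.27 (adjusted p = 0.022), CD79B lower by -0.47 ± 0.14 (adjusted p = 0.049) and IGLV10-54 higher by 1.55 ± 0.38 (adjusted p = 0.023) per unit. limma-voom called 0 members and 0% of genes. Without the 4 animals MS4A1 changed by 0.20 ± 0.15 (adjusted p = 0.56) and CD79B by -0.31 ± 0.13 (adjusted p = 0.28). Over 8 fits the adjusted p ran from 0.022 to 0.93 for MS4A1, from 0.049 to 0.40 for CD79B, which was lower with rising RIN in every fit, and from 0.023 to 0.99 for IGLV10-54.

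Per 10 years of age, in 34 animals, 0 of 7 members and 0 of 16309 genes passed in edgeR (0% called), with 1209 genes and 1 member at an unadjusted p under 0.05. IGLV10-54 changed by -2.57 ± 0.49 per 10 years (adjusted p = 0.14), and DESeq2, which called 0.0307% of the genes, called it with -2.33 ± 0.44 (adjusted p = 0.0016). limma-voom called 0 members and 0% of genes. The animal with the most IGLV10-54, 4x523, was the youngest of the 34 with a recorded age. Without it the change was -0.80 ± 0.43 (adjusted p = 0.79), and without all 4 animals it was -0.02 ± 0.20 (adjusted p = 0.99). The range of the adjusted p over 9 fits was 0.0016 to 0.99. The other 6 members changed by between -0.22 and 0.59 per 10 years.

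Among the 21 animals of 2018, the 7 with an HBV or HCV note were compared with the 14 without, with sex as covariate. Of 6 tested members 0 passed, as did 0 of 16109 genes (0% called), with 358 genes and 0 members at an unadjusted p under 0.05, and DESeq2 and limma-voom called 0 members and 0% of genes. DESeq2 gave no p for JCHAIN, MS4A1, POU2AF1 and CD79A there. JCHAIN ran from 1.54 to 517 CPM with a median of 8.75 CPM in the noted animals and from 0.846 to 774 CPM with a median of 14.5 CPM in the others. The highest noted animal was 4X0333 and the highest of the others was 529. The fitted change of JCHAIN was 1.80 ± 1.59 with both, -0.28 ± 1.40 without 4X0333, 1.88 ± 1.22 without 529 and -0.01 ± 0.97 without either, with an adjusted p of 0.92 to 1 over 10 fits.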

How the data were processed

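RNA was sequenced from heart tissue of 38 chimpanzees, 75 bp single-end, from poly(A)-selected libraries whose kit does not mark strand. The deposited gene table holds raw counts, which the authors made with STAR (2.6.1b per the labels) on Pan_tro_3.0 with Ensembl 95. The authors' table of orthologous exons also holds counts, made with featureCounts. The deposited normalised matrix holds a standardised, quantile normalised score for genes with at least 8 reads in 75% of samples. In the tables used, 52 columns belonged to no sample here and were not used. The members and lists were chosen with earlier results of these data known. Extraction year, sex, RIN, age, center and virus notes came from the study's sample table, since the labels give 1 group.

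Levels are counts divided by the orthologous exon total, in CPM, with a pseudocount of 0.5 on log scales. Symbols came from a table of Ensembl identifiers. Counts were tested with edgeR 4.0.16 (R 4.3.3; TMM, filterByExpr, quasi-likelihood test, adjusted p under 0.05), with DESeq2 1.42.0 and limma-voom (limma 3.58.1) as alternatives. Overdispersion was fitted by maximum likelihood for genes reaching 6 CPM in any heart, and its residual taken from a LOESS trend (degree 1, span 0.75). Both procedures were tested on simulated data. Of 100 genes changed 2-fold, edgeR recovered 85 for extraction year and 44 for the virus comparison. Every gene in that edgeR simulation had the same overdispersion, below that fitted for any member. It therefore cannot show how the test behaves for genes as uneven as the members. Correlations used 100000 permutations, two-sided. Totals of 14408012 to 81603350 gave a counting error of 4.52% to 10.8% at 6 CPM. Named genes were the members, the 3 highest by mean of each B and plasma cell list and of the other immunoglobulin rows, any of these called, and the 5 named genes most like JCHAIN and MS4A1. Without strand, reads of overlapping genes cannot be told apart. No sequence is printed, as none was in the tables used.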

Additional observations from a re-analysis of the deposited data

How the results depend on the processing

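Of 278 refitted member changes under the alternatives, 271 kept their side of the threshold, 5 passed it with the same sign and 2 passed it with the opposite sign, and 61 changed sign in all. For extraction year the called members numbered 1 without 4x523 (IGLV10-54, 3.28 against -0.07) and 1 without 4x523, 4X0333, 4x0043 and 529 (MZB1, 1.598 against -0.22), an alternative added after seeing the data, as was limma-voom. The cause was not tested. DESeq2 called 3 members along RIN and 1 along age, and dropping the filter on low counts called 1 along age, against 0 each in edgeR. Over all genes, extraction year called 2.08% of 16028 in Yerkes animals only, where fewer animals were fitted, against 16.1%. Sex called 101 genes (0.64%) with DESeq2 and 53 with no filter against 34. RIN called 168 (1.02%) with DESeq2 and 2 (0.00742%) with no filter against 0, and age 5 (0.0307%) with DESeq2 and 6 (0.0225%) with no filter against 0. The virus comparison called 0 genes in all of its fits. Of 48 refitted mean levels 0 moved by more than 1 SD between animals. That SD was above the mean for every member, so no fall could have counted as a move. Without 4x523 the mean of IGLV10-54 fell from 23.6 to 3.06 CPM. Of 45 refitted residual dispersions 10 moved by more than their error. Of the 5 genes most like MS4A1, 1 was shared with Pearson's r, 2 with the gene table's own total and 3 without the 4 animals, while for JCHAIN 4 or 5 were shared. No paired analysis was possible because the labels give 1 group with 1 library per animal. TNFRSF17 could not be read at this depth in most animals, and MS4A1, IGLV10-54 and CD79A rest on few counts outside the 4 animals.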

Other observations

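Animal Little_R, whose library was the shallowest, held the most kappa constant message outside the 4 animals with the most JCHAIN. IGKC was at 658 CPM there and JCHAIN at 52.9 CPM, and MS4A1 had 1 count, at a depth where 3 counts are worth 0.208 CPM and its level cannot be read. XBP1, the transcription factor of the secretory programme, had its highest level of all 38 animals there with 254 CPM. IGHV1-24 made up 38.1% of 783 counts on the named variable segments there (95% Wilson interval 34.7% to 41.5%). These genes and this animal were chosen after their values were seen.

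JCHAIN and the kappa constant region were not in a fixed proportion among the 4 animals. IGKC was at 6595 CPM in 4x0043, 1841 CPM in 4x523, 1408 CPM in 529 and 937 CPM in 4X0333, whereas JCHAIN in CPM was highest in 529. No group of 4 to 10 replicate samples was present, so no test for single outlying samples was made.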
